A study of Mus musculus with 9 samples.

Results

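The cytosolic ribosomal protein genes of mouse liver were taken as the genes of the deposited expression table named Rps or Rpl with a number, with an optional a, l, x or y, together with Rplp0, Rplp1, Rplp2 and Rpsa, leaving out rows named as pseudogenes. Of the 21898 genes in the table, 80 matched these names and 76 of them reached 10 read counts in at least 3 libraries and were kept. These 76 were 30 genes of the small subunit, 42 of the large subunit, 3 of the P stalk (Rplp0, Rplp1 and Rplp2) and the paralog Rps27l. RNA sequencing of whole liver of C57BL/6 mice gave 9 libraries in 3 groups of 3. In the TA group, mice with metabolic-associated fatty liver disease induced by an MCD diet (MCD is the usual short form of methionine- and choline-deficient) also received a high dose of tormentic acid, a plant triterpenoid. The model group had the MCD diet and no tormentic acid, and the normal group, labelled WT (wild type), received saline. The group labels of the TA and model libraries name no genotype. The labels state no age, sex, amount of tormentic acid or length of feeding. Nothing in the labels states that the 3 libraries of a group come from separate animals, so the p-values below measure only the spread between these libraries.

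Each cytosolic ribosome is built from a small subunit, which reads the messenger RNA, and a large subunit, which joins amino acids, and both hold ribosomal RNA and a single copy of most ribosomal proteins. The P stalk is a protrusion of the large subunit that recruits the elongation factors. Ribosomal protein messenger RNAs of mammals start at a cytosine followed by a run of pyrimidines, the TOP motif, through which mTORC1 and the RNA-binding protein Larp1 set their translation. In liver the ribosomes of hepatocytes make the bulk of the plasma proteins, such as albumin.

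RefSeq promoter entries (GRCm38.p6) were matched by symbol for 56 of the 76 genes. The sequences shown are 30 bases centred on the annotated start, 5′ to 3′ on the gene's strand, for the 6 genes that passed the test in a comparison below, and for Rps6, the ribosomal protein phosphorylated downstream of mTORC1. Capitals mark a stretch of at least 5 pyrimidines whose first base is a C within 10 bases of the annotated start. Where pyrimidines go on further upstream, only the part from that C on is marked, as in Rps27l, and of several such stretches only the longest is. Every start that RefSeq lists for these genes is shown.
Rps2, chr17:24720048-24720077, plus strand: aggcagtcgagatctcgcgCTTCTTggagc
Rpl35a, chr16:33056438-33056467, plus strand: gcggggcgtgcgtcccacaaggccgcgcgg
Rpl35a, chr16:33056467-33056496, plus strand: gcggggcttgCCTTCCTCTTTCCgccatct
Rpl35a, chr16:33056499-33056528, plus strand: gcgcctgtggaggtgaggggggttcctgct
Rpl4, chr9:64173372-64173401, plus strand: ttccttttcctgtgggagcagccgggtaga
Rpl22, chr4:152325711-152325740, plus strand: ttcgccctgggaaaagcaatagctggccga
Rpl22, chr4:152324421-152324450, plus strand: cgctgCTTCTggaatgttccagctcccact
Rps10, chr17:27635230-27635259, minus strand: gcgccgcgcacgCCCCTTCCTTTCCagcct
Rps27l, chr9:66946071-66946100, plus strand: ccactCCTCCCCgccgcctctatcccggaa
Rps27l, chr9:66946398-66946427, plus strand: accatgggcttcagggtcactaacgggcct
Rps6, chr4:86857353-86857382, minus strand: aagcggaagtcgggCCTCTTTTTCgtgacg

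Such a stretch was present at a listed start of 35 of the 56 genes (62.5%), against 34.4% of the 27025 genes with an entry. Rpl4 had none by this rule, although a pyrimidine run that begins further upstream reaches to within 10 bases of its start. Rps2, Rps10 and Rps6 had one at their only start, and Rpl35a, Rpl22 and Rps27l had one at 1 of their starts. In the wider window, 250 bases before to 50 after the start and on both strands, CGGAAG (a core bound by ETS family factors) was found in 39 of the 56 genes (69.6%), against 18.8% of all genes. Its reverse complement CTTCCG can overlap a pyrimidine stretch. CTTTCC was found in 51.8% of the members, against 29.3% of all genes, and CTTTTC in 28.6%, against 24.3%. TATAAA was found in 10.7% of the members, against 15.7% of all genes. These are matches of letters only.

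The deposited FPKM values (reads scaled by gene length and by the reads of the library) allowed levels to be compared between genes, given the deposited gene lengths. Rplp1, a P stalk protein, had the highest mean FPKM of the members over the 9 libraries, 498.2, and was the gene of rank 84 in the whole table. Rps15, a protein of the head of the small subunit, followed with a mean FPKM of 400.7, and Rps2, which lines the entry of the messenger RNA channel, with 371.2. Rpl19 (340.8), Rplp0 (332.5) and Rpl4 (327.6) came next on the same scale. Rplp1 was above Rps15 in all 9 libraries. Rplp1 averaged 481.9 ± 38.3 FPKM in TA livers, 580.3 ± 86.8 in model livers and 432.5 ± 69.4 in normal livers (SD, n = 3 each). Rps15 averaged 410.0 ± 22.2 FPKM in TA livers, 459.5 ± 80.0 in model livers and 332.6 ± 29.1 in normal livers (SD, n = 3 each). Rps2 averaged 373.6 ± 23.1 FPKM in TA livers, 371.5 ± 28.9 in model livers and 368.6 ± 31.0 in normal livers (SD, n = 3 each). Within each TA and model library Rps15 was above Rps2, and within each normal library Rps2 was above Rps15. No scaling between libraries changes this order, but the gene length used can. The deposited lengths were 630 bases for Rps15 and 1830 for Rps2. Their GENCODE M21 transcripts with the longest coding sequence have 500 and 962 bases. The ranking of the members, and this switch of order between groups, therefore rest on the deposited lengths.

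At the other end of the FPKM scale stood Rps10 (0.864), Rpl13a (1.26), Rpl23a (1.80), Rpl35 (3.65) and Rpl30 (4.10), although their proteins are ribosome components like the others. Sequence shared with other genes was measured as the share of the 75-base stretches of a gene's transcript that also occur in another GENCODE M21 gene. This share had a median of 43.4% over the 76 genes, and 32 genes were above 50%. Of the low 5, Rps10 had 63.3% of its stretches in 3 other genes, Rpl13a 56.3% in 2, Rpl23a 81.7% in 17, Rpl35 89.2% in 5 and Rpl30 71.8% in 12. High sharing did not go with low counts throughout. Rps2 shared 69.0% of its stretches with 49 other genes and averaged 10480 counts, and Rps6 shared 84.1% with 11 genes and averaged 6312 counts. The labels and files do not say how reads that match several genes were counted, so levels of genes with high sharing are uncertain, and the part of this sharing in the low counts was not tested.

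**Figure D1:**
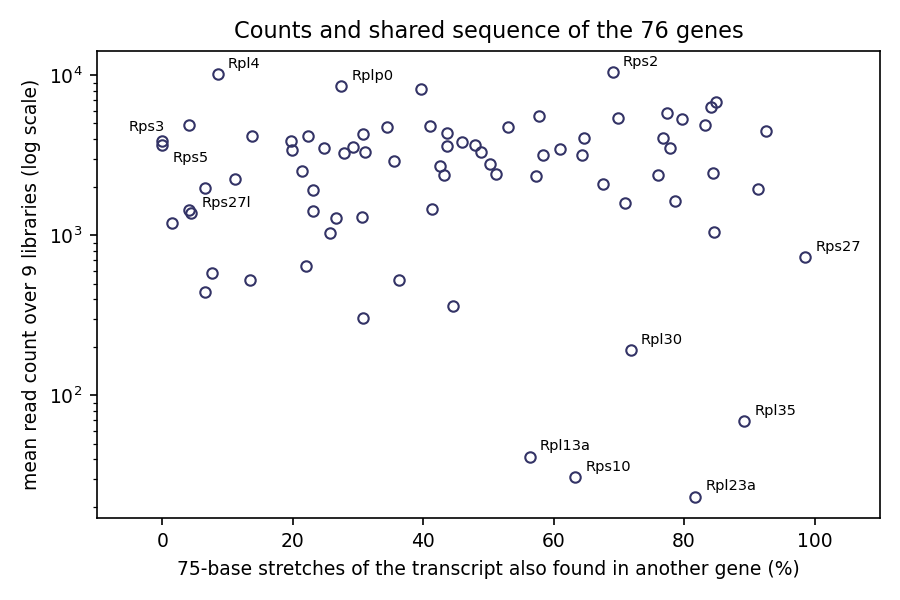
Mean read count over 9 libraries (log axis) of each of the 76 ribosomal protein genes against the share of its 75-base transcript stretches that also occur in another gene (%). Rps10, Rpl23a, Rpl13a and Rpl35 lie lowest, between 56.3% and 89.2% shared, while Rps2 at 69.0% has 10480 counts.

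The 4 genes that matched the names and were not kept were Rpl24, Rpl3l, Rpl10l and Rpl39l. Rpl24, a large subunit protein whose loss causes the Belly spot and tail phenotype in mice, had 0, 8 and 16 counts in TA libraries, 1, 2 and 4 in model libraries and 7, 1 and 7 in normal libraries. It shared 80.9% of its stretches with 5 other genes. The paralogs Rpl3l (known from muscle), Rpl10l (known from testis) and Rpl39l had at most 4 counts in any library. Just inside the threshold, Rpl23a had 17, 33 and 22 counts in TA libraries, 36, 13 and 22 in model libraries and 32, 19 and 16 in normal libraries. Rps10 had 32, 31 and 24 counts in TA libraries, 81, 30 and 43 in model libraries and 7, 17 and 13 in normal libraries.

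Library totals lay between 13710002 and 16475794 gene counts. Ribosomal protein transcripts made up 1.51%, 1.48% and 1.41% of the gene counts in TA libraries, 2.12%, 1.53% and 1.74% in model libraries and 1.32%, 1.42% and 1.16% in normal libraries. The group means of this share were 1.47% ± 0.0535 in TA livers, 1.80% ± 0.298 in model livers and 1.30% ± 0.135 in normal livers (SD, n = 3 each). All 3 model libraries were above all TA and all normal libraries on this measure. The share depends on what else the library holds: the 100 most abundant other genes took 41.9 to 51.2% of the counts in TA libraries, 32.7 to 38.2% in model libraries and 45.2 to 46.0% in normal libraries. Measured against the counts without those 100 genes, the share was 2.78% in TA livers, 2.78% in model livers and 2.39% in normal livers.

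TMM scaling sets the libraries to a common level through the bulk of genes, and its factors were 0.801 to 1.005 in TA libraries, 1.186 to 1.436 in model libraries and 0.824 to 0.842 in normal libraries. After it, the summed CPM (counts scaled to a common library size) of the 76 genes were 15014, 16588 and 17553 in TA libraries, 15048, 12929 and 12106 in model libraries and 16033, 16936 and 13867 in normal libraries. The groups overlapped after TMM scaling, and the lowest values came from model replicates 2 and 3, whereas model libraries had the highest share of raw totals. Because whole liver was sequenced, fewer cells of a type and less RNA per cell cannot be told apart. Summed hepatocyte markers (8 genes, none at 0) ranged over 110000 to 145900 CPM in TA libraries, 43530 to 75780 in model libraries and 118100 to 145100 in normal libraries. Summed macrophage and monocyte markers (8 genes, none at 0) ranged over 1165 to 1717 CPM in TA libraries, 2519 to 3287 in model libraries and 336.0 to 391.8 in normal libraries. Their part in the ribosomal protein values was not tested.

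**Figure D2:**
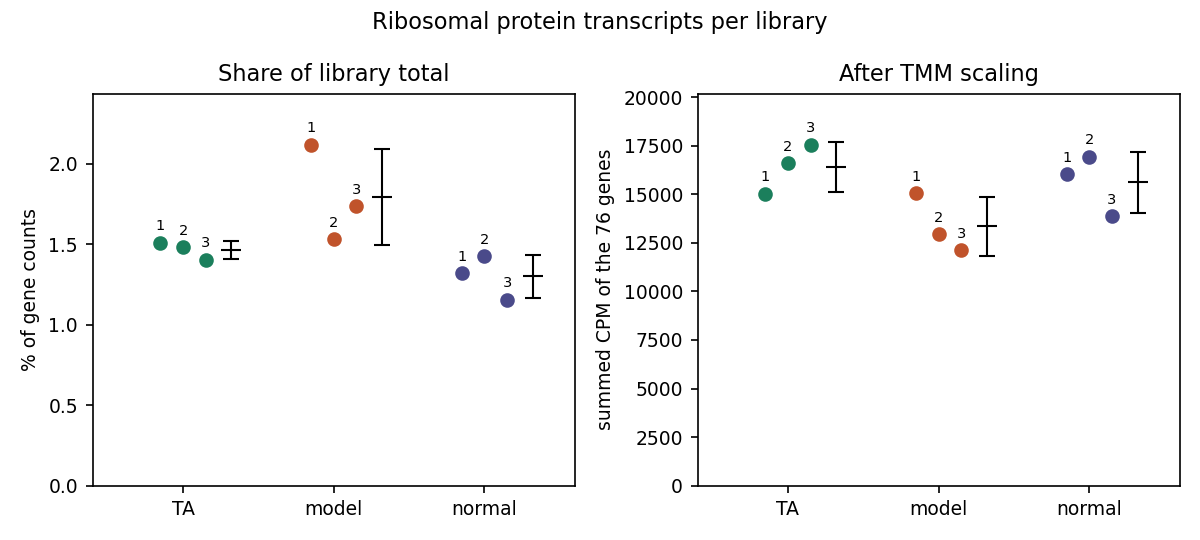
Summed ribosomal protein transcripts of the 76 genes in each library (points, numbered by replicate) with the group mean and SD beside them, as a percentage of gene counts (left) and as summed CPM after TMM scaling (right). Model libraries lie highest on the left, at 1.53 to 2.12%, and overlap the others on the right, at 12106 to 15048 CPM.

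The members moved together between libraries of the same group. In model replicate 1, 75 of the 76 genes were above their group mean after TMM scaling, and in model replicate 3 none was. In normal replicate 3, 1 of 76 was above its group mean, against 64 and 69 in the other two normal libraries. In TA replicate 1, 11 of 76 were above, against 52 and 59 in TA replicates 2 and 3. Of all 13200 genes tested, 45.9 to 53.7% were above their group mean in each library. The mitochondrial genome's 13 genes took 4.92%, 12.5% and 15.4% of counts in TA libraries, 11.6%, 7.55% and 7.36% in model libraries and 6.59%, 7.80% and 6.45% in normal libraries, so the libraries in which most members were above their group mean were also above it in this share, except normal replicate 1, and the part of the mitochondrial share in this pattern was not tested. The median coefficient of variation of the members within a group was 12.1% in TA livers, 14.7% in model livers and 12.7% in normal livers, and for all genes tested it was 19.9%, 16.5% and 14.8% in the same groups.

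The ratio of the summed counts of Rps genes to those of Rpl genes stayed within a narrow range, 0.641 to 0.650 in TA libraries, 0.650 to 0.668 in model libraries and 0.658 to 0.670 in normal libraries. Within that range all TA libraries were below all model and all normal libraries. The highest TA ratio was 0.6496 and the lowest model ratio 0.6503. Among the genes with at least 1000 mean counts, the ratio of the 28 genes with a coding length under 450 bases to the 35 longer ones varied more, 0.423, 0.470 and 0.487 in TA libraries, 0.475, 0.425 and 0.428 in model libraries and 0.436, 0.442 and 0.408 in normal libraries. The short genes were relatively high in the libraries with the larger mitochondrial share, TA replicates 2 and 3 and model replicate 1.

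For model against normal livers, which addresses what the diet did, ribosomal protein transcripts stayed close to the median gene under TMM scaling. Of the 76 genes, 5 (6.58%) passed edgeR's quasi-likelihood test at a Benjamini-Hochberg adjusted p under 0.05 over 13200 genes, where 48.1% of all genes passed. Rps2, Rpl35a, Rpl4 and Rpl22 fell (lower calls were 22.6% of all genes) and Rps10 rose (higher calls were 25.4%). The median log2 fold change of the members was -0.18, with 65 negative and 11 positive, against 0.00 for all genes, but it was 0.51 when the counts were scaled by library totals alone, where the median of all genes was 0.69. With library totals 45 members (59.2%) were called, all higher, where 61.4% of all genes were called and 55.1% were called higher. Relative to the median of all genes the members stood at -0.183 with TMM scaling and -0.179 with library totals. Without model replicate 1 the median of the members was -0.30, without normal replicate 3 -0.28, without model replicate 3 -0.10 and without normal replicate 2 -0.11. Of the members, 94.7% lay within 0.5 of no change on the log2 scale, against 43.9% of all genes.

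**Figure D3:**
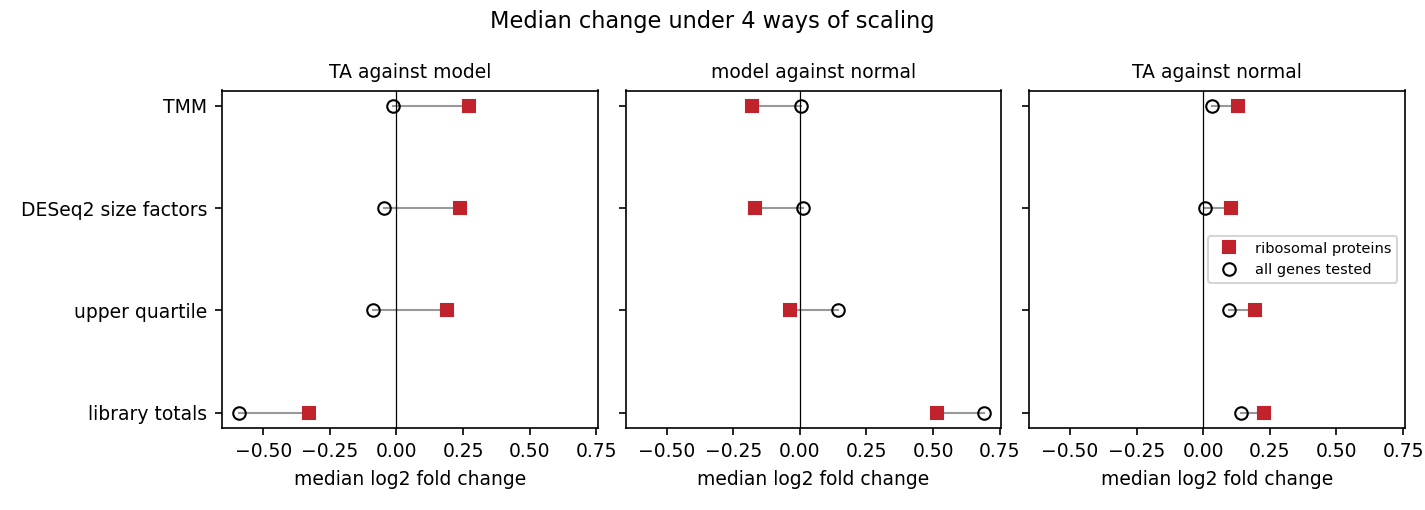
Median log2 fold change of the 76 ribosomal protein genes (squares) and of all 13200 genes tested (open circles) under 4 ways of scaling, for each comparison. Library totals shift both medians together, to 0.51 and 0.69 for model against normal and to -0.33 and -0.59 for TA against model, so the sign of the ribosomal protein median depends on the scaling while its distance from all genes stays near the same value.

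Rps2 had 728.0, 746.3 and 814.9 CPM in TA libraries, 520.1, 528.6 and 474.0 in model libraries and 812.6, 872.1 and 744.2 in normal libraries. All 3 model libraries were below all of the others. Rps2 (chr17:24718116-24721929, plus strand, GRCm38) fell in model against normal livers by 0.67 ± 0.18 on the log2 scale (SE), 0.627 of the normal level (edgeR adjusted p = 0.0087). Counted by library totals, its log2 fold change was 0.01, so this gene was level per read sequenced and low relative to the bulk of genes. The same dip showed in Rpl35a, a large subunit protein mutated in some human cases of Diamond-Blackfan anaemia, an inherited anaemia of ribosomal protein genes. It had 100.7, 106.5 and 112.03 CPM in TA libraries, 87.4, 68.3 and 58.9 in model libraries and 110.1, 121.9 and 98.5 in normal libraries. Rpl35a (chr16:33056453-33060189, plus strand) fell in model against normal livers by 0.62 ± 0.17 (log2, SE, edgeR adjusted p = 0.0108). It lost the call without model replicate 3 (adjusted p = 0.0534) and stood at 0.07 with library totals. Rpl35a shared 41.35% of its stretches with 15 other genes and Rps2 69.0% with 49, all annotated as pseudogenes. The part of this sharing in their changes was not tested.

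Rpl4, which lines the tunnel through which the new protein leaves, had 672.0, 693.0 and 771.2 CPM in TA libraries, 523.8, 571.7 and 521.5 in model libraries and 740.4, 762.6 and 706.7 in normal libraries. It fell in model against normal livers by 0.45 ± 0.17 (log2, SE, edgeR adjusted p = 0.0492). Rpl22, a large subunit protein that mice can live without, had 68.5, 74.6 and 84.7 CPM in TA libraries, 70.5, 69.2 and 59.2 in model libraries and 99.7, 86.3 and 79.7 in normal libraries. It fell in model against normal livers by 0.42 ± 0.15 (log2, SE, edgeR adjusted p = 0.0395). Neither gene's model libraries overlapped its normal libraries. Both calls were close to the threshold: with upper-quartile scaling the adjusted p was 0.144 for Rpl4 and 0.16 for Rpl22, and with library totals the log2 changes were 0.23 and 0.27. Rpl4 shared 8.47% of its stretches with 1 other gene and Rpl22 1.42% with 2, so little of their sequence is held by other genes. Leaving out 1 library, Rpl4 kept the call only without TA replicate 1 or model replicate 2 (adjusted p otherwise 0.0517 to 0.136). Rpl22 lost it without TA replicate 2 (adjusted p = 0.053), model replicate 1 (0.0617), model replicate 3 (0.148), normal replicate 1 (0.147) or normal replicate 2 (0.0729).

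Rps10, a protein of the head of the small subunit, had 1.93, 2.53 and 2.09 CPM in TA libraries, 3.58, 1.63 and 1.86 in model libraries and 0.516, 1.45 and 0.963 in normal libraries. It rose in model against normal livers by 1.28 ± 0.47 (log2, SE, edgeR adjusted p = 0.0412). Its mean over the 9 libraries, 1.84 CPM, was the lowest of the members after Rpl23a (1.56 CPM). Model replicate 1 was the highest, and without it the log2 change was 0.85 (adjusted p = 0.206). The call was also lost with limma-voom (adjusted p = 0.053), without normal replicate 1 or 3 (adjusted p = 0.138 and 0.0963), without model replicate 3 (0.0532) and without TA replicate 2 or 3 (0.0512 and 0.0519).

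**Figure D4:**
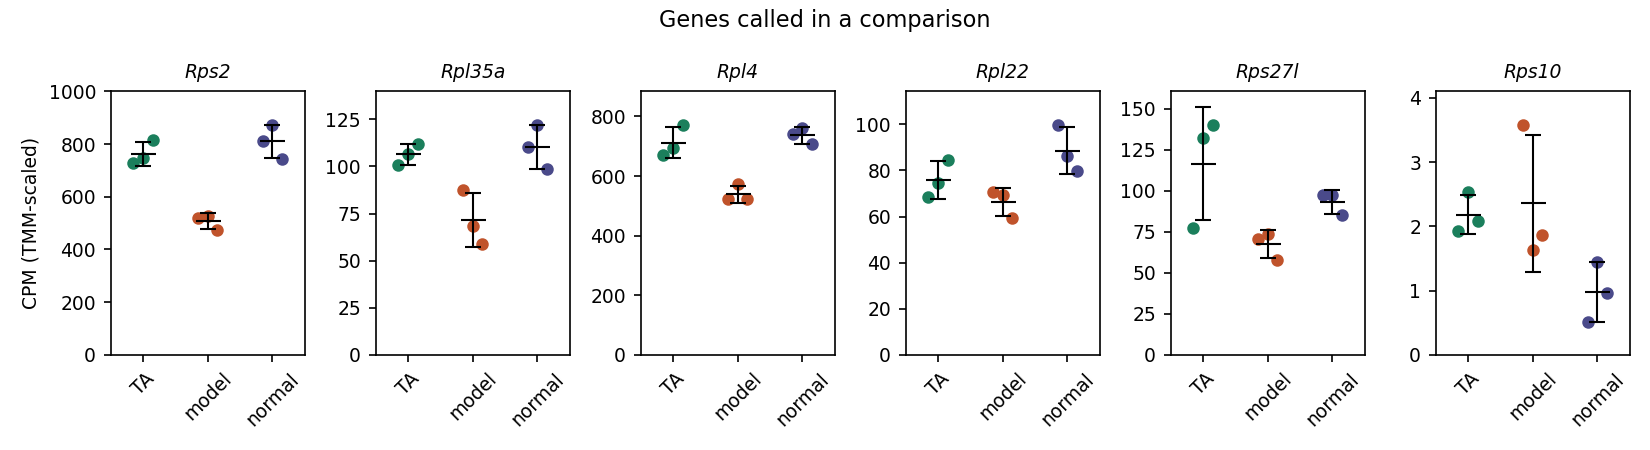
TMM-scaled CPM of the 6 genes that passed the test in a comparison, for TA, model and normal livers, with points for libraries and bars for mean and SD (n = 3 each). Model libraries of Rps2, Rpl35a and Rpl4 lie below all others, Rps27l is high in TA replicates 2 and 3, and Rps10 stays under 4 CPM; with library totals in place of TMM the model against normal changes of Rps2, Rpl35a, Rpl4 and Rpl22 turn positive.

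Of the 76 members in model against normal livers, 15 had all model libraries below all normal libraries (30% of all genes did) and 1, Rps10, had them above (31.3% of all genes did). The 15 included Rpl3, Rpl5, Rpl7, Rpl7a, Rpl8, Rpl9, Rpl10a, Rplp0, Rps4x, Rps14 and Rps27l beside the 4 that fell. Rplp0, the base of the P stalk and a common reference gene in quantitative PCR, had 655.6, 559.4 and 518.7 CPM in TA libraries, 515.2, 485.9 and 479.8 in model libraries and 567.7, 594.6 and 518.4 in normal libraries. Its model against normal log2 change was -0.18 ± 0.18 (SE, edgeR adjusted p = 0.414), and 0.51 with library totals (adjusted p = 0.0423). Whether this reference gene counts as lower or higher in model livers therefore depended on the scaling. Its partner Rplp1 had 260.5, 263.0 and 280.7 CPM in TA libraries, 240.2, 215.8 and 191.2 in model libraries and 274.0, 290.5 and 212.7 in normal libraries, a model against normal log2 change of -0.26 ± 0.18 (SE, edgeR adjusted p = 0.235).

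Rpl5 and Rpl11, which with the smallest ribosomal RNA can bind Mdm2 and so stabilise p53, had model against normal log2 changes of -0.25 ± 0.16 and -0.20 ± 0.20 (SE, edgeR adjusted p = 0.218 and 0.417). Rps6 stood at -0.29 ± 0.18 (adjusted p = 0.222) and Rps27a, made as a fusion with ubiquitin, at -0.35 ± 0.16 (adjusted p = 0.0889). Rps15 stood at -0.22 ± 0.17 (adjusted p = 0.291) and Rpl19 at -0.02 ± 0.20 (adjusted p = 0.944). None of these passed the test. At low counts, Rpl23a, a docking site for factors at the exit tunnel, stood at -0.66 ± 0.49 (adjusted p = 0.291) and Rpl13a, in human cells part of an interferon-induced repressor of translation, at 0.47 ± 0.34 (adjusted p = 0.265). Rps12 had the next highest value, 0.22 ± 0.18 (adjusted p = 0.323). The subunits did not stand apart: the median was -0.17 for 30 small subunit genes, -0.18 for 42 large subunit genes and -0.18 for 3 P stalk genes. The 44 genes with at most 50% of their stretches shared had a median of -0.17 and the 32 with more had -0.20.

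For TA against model livers, which addresses the effect of tormentic acid on the diet, 3 of the 76 members (3.95%) passed the same test, all higher, where 23% of all genes passed (11.8% higher). They were Rps27l, Rps2 and Rpl35a. The median log2 fold change of the members was 0.27, with 72 positive and 4 negative, against -0.01 for all genes, but it was -0.33 with library totals, where the median of all genes was -0.59. With library totals 6 members (7.89%) were called, all lower, where 46.4% of all genes were called and 43.3% were called lower. Relative to all genes the members stood at 0.285 with TMM scaling and 0.263 with library totals. In this comparison 18 members had all TA libraries above all model libraries (19% of all genes did) and none had them below (20.1% of all genes did). Without model replicate 1 the median was 0.41. This comparison and the one before it share the model libraries, so values of the same gene with opposite sign in both are not independent.

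Rps27l, a paralog of Rps27 that p53 induces in human cells, had 77.1, 132.3 and 140.2 CPM in TA libraries, 70.6, 74.0 and 58.0 in model libraries and 97.5, 97.7 and 85.1 in normal libraries. TA replicates 2 and 3 were above every other library and TA replicate 1 was close to the model libraries. Rps27l (chr9:66946086-66949516, plus strand) rose in TA against model livers by 0.79 ± 0.21 (log2, SE, edgeR adjusted p = 0.0231), the largest change of any member in this comparison. Without TA replicate 2 the adjusted p was 0.0757, without TA replicate 3 0.0864, without model replicate 1 0.0621 and without model replicate 3 0.0947. Only 4.39% of its stretches are shared, with 2 other genes. Its model against normal change was -0.47 ± 0.21 (adjusted p = 0.0909). That value was called without TA replicate 1 (adjusted p = 0.0144) and in the fit on the 6 model and normal libraries alone (-0.43, adjusted p = 0.0292), and it was 0.21 with library totals. The parent gene Rps27, which shares 98.5% of its stretches with 4 genes, had 38.0, 61.1 and 51.5 CPM in TA libraries, 55.2, 33.9 and 39.8 in model libraries and 45.8, 57.9 and 37.4 in normal libraries, and these groups overlapped.

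Rps2 rose in TA against model livers by 0.59 ± 0.18 (log2, SE, edgeR adjusted p = 0.0339). Rpl35a rose by 0.57 ± 0.17 (log2, SE, edgeR adjusted p = 0.0327). In neither gene did the TA libraries overlap the model libraries, whose values are given above. Fitted on the 6 TA and model libraries alone, the adjusted p was 0.0702 for Rps2, 0.0685 for Rpl35a and 0.0553 for Rps27l, so none of the 3 calls held in that fit. Leaving out 1 library, Rps2 kept the call only without TA replicate 1 or model replicate 2 (adjusted p otherwise 0.0509 to 0.13), and Rpl35a lost it without TA replicate 2 (0.0752), TA replicate 3 (0.0873), model replicate 2 (0.0529) or model replicate 3 (0.14). With library totals the log2 changes were 0.01 for Rps2, -0.01 for Rpl35a and 0.19 for Rps27l.

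Of the others, Rpl36, a short large subunit protein, had 95.7, 143.2 and 161.3 CPM in TA libraries, 109.6, 74.3 and 66.5 in model libraries and 107.0, 104.1 and 78.1 in normal libraries. Its TA against model log2 change was 0.68 ± 0.24 (SE, edgeR adjusted p = 0.0635). TA replicate 1 lay among the model libraries, and without it the change was 0.86 and the adjusted p 0.0227. Rpl23a stood at 0.77 ± 0.49 (adjusted p = 0.279) on at most 36 counts per library. Rpl4 stood at 0.40 ± 0.17 (adjusted p = 0.115), Rps15 at 0.42 ± 0.17 (adjusted p = 0.0915) and Rpl11 at 0.43 ± 0.20 (adjusted p = 0.134). DESeq2's Wald test called Rpl4 (0.37, adjusted p = 0.00695), Rps15 (0.39, adjusted p = 0.0375) and Rpl36 (0.64, adjusted p = 0.0467), and with library totals Rpl4 stood at -0.18.

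Rpl11 had 211.9, 275.6 and 290.0 CPM in TA libraries, 225.2, 188.5 and 162.8 in model libraries and 236.8, 240.6 and 185.5 in normal libraries, so TA replicate 1 overlapped the model libraries. Rpl5, which acts with Rpl11, did not share this pattern: its 284.8, 259.9 and 245.5 CPM in TA libraries stood beside 287.0, 255.5 and 255.4 in model libraries and 338.8, 302.3 and 306.2 in normal libraries. The TA against model change of Rpl5 was -0.01 ± 0.16 (SE, edgeR adjusted p = 0.958). Rpl3, near the site of peptide bond formation, was the lowest of the members at -0.17 ± 0.16 (adjusted p = 0.466), followed by Rps10 at -0.12 ± 0.44 (adjusted p = 0.874) and Rps15a at -0.05 ± 0.17 (adjusted p = 0.868). Rplp0 stood at 0.23 ± 0.18, Rplp1 at 0.31 ± 0.18, Rpl19 at 0.33 ± 0.20, Rps6 at 0.26 ± 0.18 and Rps27a at 0.15 ± 0.16 (log2, SE), with adjusted p between 0.221 and 0.522. The median was 0.20 for the small subunit, 0.30 for the large subunit and 0.23 for the P stalk.

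**Figure D5:**
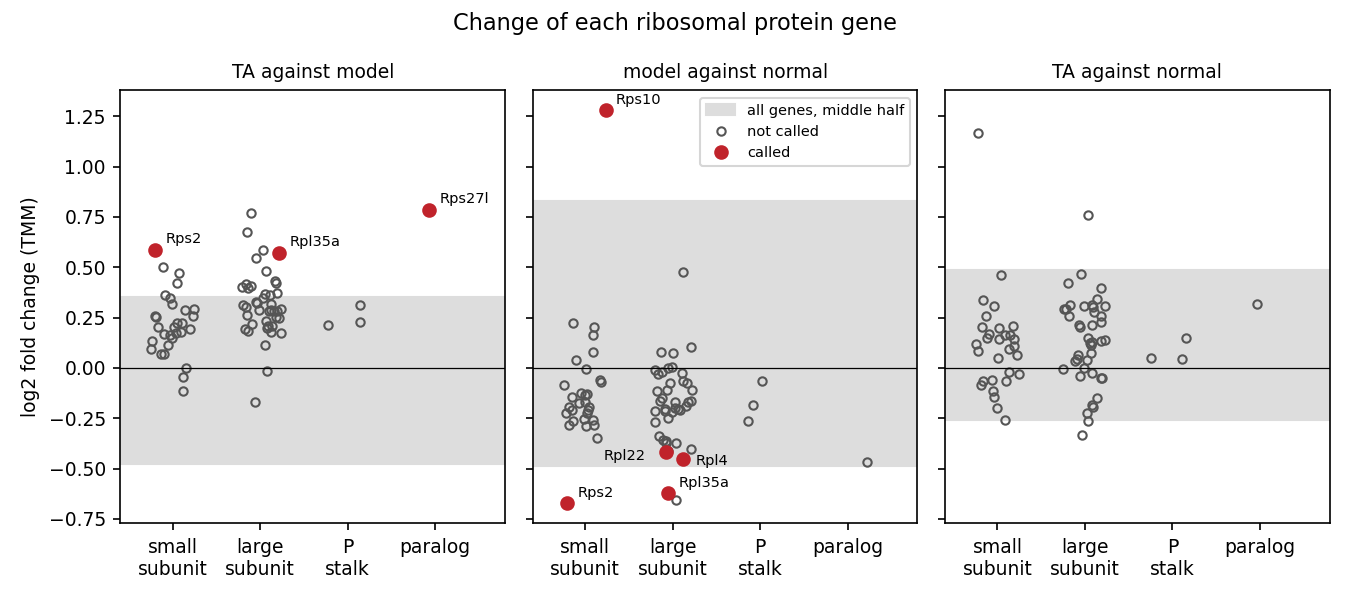
Log2 fold change (TMM scaling) of each of the 76 ribosomal protein genes, by role, in the 3 comparisons, with filled points for genes that passed the test at an adjusted p under 0.05. The grey band spans the 25th to the 75th percentile of all 13200 genes tested; 94.7% of the members lie within 0.5 of no change for model against normal, 90.8% for TA against model and 97.4% for TA against normal, and with library totals the medians of the first and second of these change sign.

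For TA against normal livers, none of the 76 members passed edgeR's test, where 15.8% of all genes passed (10.7% higher and 5.03% lower). At an unadjusted p under 0.05 there were 3 members (3.95%), where 31.1% of all genes were, and DESeq2's Wald test called 1, Rpl3, lower, where it called 20.9% of all genes and 8.0% lower. The median log2 fold change was 0.13, with 54 positive and 22 negative, against 0.03 for all genes, and 97.4% of the members lay within 0.5 of no change, against 63.5% of all genes. All TA libraries were above all normal libraries for 7 members (20.1% of all genes) and below them for 3 (16.1% of all genes). The 7 included Rpl13a, Rps10, Rps12 and Rps15, and the 3 were Rpl3, Rpl5 and Rps4x. Without normal replicate 3 the median was 0.03, against 0.04 for all genes, and without normal replicate 2 it was 0.21 against 0.05. Without TA replicate 3 it was 0.07 against 0.03. A p that misses the threshold does not show that TA and normal livers had the same levels.

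Rpl3 had 284.5, 265.5 and 262.4 CPM in TA libraries, 331.6, 296.3 and 284.4 in model libraries and 349.7, 336.7 and 335.7 in normal libraries. Its TA against normal log2 change was -0.33 ± 0.16 (SE, edgeR adjusted p = 0.175), and -0.36 in DESeq2 (adjusted p = 0.0158). Rps4x, the X-linked form of this small subunit protein, had 305.3, 285.2 and 254.8 CPM in TA libraries, 304.4, 271.8 and 268.7 in model libraries and 372.2, 334.7 and 306.0 in normal libraries. Its TA against normal change was -0.26 ± 0.17 (adjusted p = 0.316), and that of Rpl5 was -0.26 ± 0.16 (adjusted p = 0.291). In these 3 genes the TA libraries were near the model libraries and below the normal libraries, unlike Rps2 and Rpl35a, whose TA libraries were near the normal libraries: TA against normal was -0.09 ± 0.18 for Rps2 and -0.05 ± 0.17 for Rpl35a (log2, SE).

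At low counts, Rps10 stood at 1.17 ± 0.48 in TA against normal livers (log2, SE, edgeR adjusted p = 0.124) and Rpl13a at 0.76 ± 0.34 (adjusted p = 0.154). Rpl13a had 3.44, 3.10 and 3.13 CPM in TA libraries, 3.18, 3.10 and 1.69 in model libraries and 2.14, 1.87 and 1.70 in normal libraries. Rpl36 stood at 0.47 ± 0.24 (adjusted p = 0.21), Rps27l at 0.32 ± 0.21 (adjusted p = 0.341) and Rps15 at 0.20 ± 0.17 (adjusted p = 0.459). Rplp0 and Rplp1 stood at 0.04 ± 0.18 and 0.05 ± 0.18, and Rps6 at -0.03 ± 0.18. The median was 0.11 for the small subunit, 0.14 for the large subunit and 0.05 for the P stalk.

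The authors' deposited tables of fold changes held all 76 members. In the authors' deposited table for model against normal, 2 members were lower at an adjusted p under 0.05, Rpl35a and Rps2, and none was higher, where 2860 of 16828 genes were higher and 2510 lower. The members' median fold in the authors' deposited table was 0.889. In the authors' deposited table for TA against model, no member was called, with a median fold of 1.22, where 891 of 16727 genes were higher and 924 lower.

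Of 9 ribosomal protein genes outside the name rule, which include Fau, Rack1 and Rps3a1, only Rpl7l1, a paralog of Rpl7, passed the test. It fell in model against normal livers by 0.59 ± 0.16 (log2, SE, edgeR adjusted p = 0.00938). That was 11.1% of the 9, where 22.6% of all genes were lower. It also fell in TA against normal livers, by 0.51 ± 0.16 (adjusted p = 0.0463), again 11.1%, where 5.03% of all genes were lower. None passed in TA against model livers, where 23% of all genes did. The 77 mitochondrial ribosomal proteins tested, which build the separate ribosome of mitochondria, are given for comparison. In model against normal livers 42 of them (54.5%) were lower and 0 higher (median -0.55), where 22.6% of all genes were lower and 48.1% were called in either direction, among them Mrps24 at -0.98 ± 0.14 (log2, SE, adjusted p = 0.000279). In TA against model livers 20 (26.0%) were higher and 0 lower (median 0.44), where 11.8% of all genes were higher and 23% were called in either direction, among them Mrpl9 at 0.72 ± 0.14 (adjusted p = 0.0063). In TA against normal livers 0 were higher and 1, Mrpl3, was lower (1.3%, median -0.05), where 15.8% of all genes were called. These values are from TMM scaling only. With library totals the median of all genes was 0.69 in model against normal livers and -0.59 in TA against model livers. Lower and higher in the mitochondrial set can therefore depend on the scaling, as they did for the members. The difference between the cytosolic and the mitochondrial sets was not tested.

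Counts for the genes that make ribosomal RNA, assemble ribosomes and control translation are set against the share of all genes called in either direction. It was 48.1% in model against normal livers (25.4% higher, 22.6% lower) and 23% in TA against model livers (11.8% higher, 11.1% lower). In TA against normal livers it was 15.8% (10.7% higher, 5.03% lower). These lists were fitted with TMM scaling only. With library totals the median of all genes was 0.69 in model against normal livers and -0.59 in TA against model livers. Higher and lower in these lists can therefore depend on the scaling. Of 16 genes of RNA polymerase I and its factors, 2 (12.5%) were higher and 0 lower in model against normal livers: Myc, a transcription factor that drives ribosome production, at 2.48 ± 0.42 (log2, SE, edgeR adjusted p = 0.000694) and Taf1c at 1.66 ± 0.45 (adjusted p = 0.00998). Myc averaged 8.18 ± 2.43 CPM in TA livers, 25.6 ± 9.97 in model livers and 4.60 ± 2.39 in normal livers (SD, n = 3 each). In TA against model livers 1 gene, Polr1c, was higher and 1, Myc, lower at -1.64 ± 0.40 (adjusted p = 0.0147), and in TA against normal livers 1, Ubtf, was higher. Of 71 ribosome biogenesis factors, 6 were higher and 9 lower in model against normal livers (21.1% called), 5 higher and 2 lower in TA against model livers (9.86%), and 3 higher and 2 lower in TA against normal livers (7.04%). Tcof1, a nucleolar factor of ribosomal RNA transcription, was higher at 1.41 ± 0.19 in model against normal livers (adjusted p = 0.000179). The 9 lower ones there included Rcl1 at -1.01 ± 0.21 (adjusted p = 0.00221) and Emg1 at -0.79 ± 0.13 (adjusted p = 0.000688). Nop58, a core protein of small nucleolar RNA particles, was lower at -0.97 ± 0.19 in TA against model livers (adjusted p = 0.00604). The 5 higher ones there included Rcl1 at 0.96 ± 0.21 (adjusted p = 0.00901) and Imp3 at 0.66 ± 0.14 (adjusted p = 0.00806).

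Among 15 other TOP messenger RNAs and elongation factors, 2 were higher and 4 lower in model against normal livers (40.0% called, median -0.17), 1 higher and 1 lower in TA against model livers (13.3%, median 0.24) and 1 higher and 0 lower in TA against normal livers (6.67%, median 0.07). The higher ones in model against normal livers were Vim, an intermediate filament gene of mesenchymal cells, at 2.77 ± 0.28 (log2, SE, edgeR adjusted p = 2.27e-05) and Hnrnpa1 at 0.75 ± 0.14 (adjusted p = 0.00117). The 4 lower ones included Eif4b at -0.49 ± 0.16 (adjusted p = 0.023). In TA against model livers Eif4b was the higher one, at 0.55 ± 0.16 (adjusted p = 0.0286), and Hnrnpa1 the lower one, at -0.57 ± 0.14 (adjusted p = 0.0141). Of 35 initiation factors, 0 were higher and 12 lower in model against normal livers (34.3% called, median -0.33), where 22.6% of all genes were lower. In TA against model livers 3 were higher and 0 lower (8.57%, median 0.18), where 11.8% of all genes were higher. In TA against normal livers 0 were higher and 2 lower (5.71%, median -0.11), where 5.03% of all genes were lower. Eif4a2, an RNA helicase of initiation, was at -0.88 ± 0.17 in model against normal livers (adjusted p = 0.00137) and at 0.78 ± 0.17 in TA against model livers (adjusted p = 0.00875).

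Of 28 genes of mTORC1, nutrient sensing and TOP control, 5 were higher and 9 lower in model against normal livers (14 of 28 called), 5 higher and 1 lower in TA against model livers (21.4%), and 4 higher and 1 lower in TA against normal livers (17.9%), shares close to those of all genes. Pdcd4, an inhibitor of the initiation helicase, was at -1.43 ± 0.21 in model against normal livers (log2, SE, edgeR adjusted p = 0.000295) and at 1.02 ± 0.21 in TA against model livers (adjusted p = 0.00763). Ddit4, a stress-induced inhibitor of mTORC1, was at -1.60 ± 0.42 in TA against model livers (adjusted p = 0.0203). In TA against normal livers the 1 lower gene was Larp1, at -0.72 ± 0.19 (adjusted p = 0.0262). Larp1 averaged 144.4 ± 28.7 CPM in TA livers, 132.5 ± 20.7 in model livers and 238.5 ± 23.95 in normal livers (SD, n = 3 each). The 4 higher genes included Rps6ka1 at 1.06 ± 0.19 (adjusted p = 0.00316), Trib3 at 2.04 ± 0.40 (adjusted p = 0.0058) and Flcn at 0.72 ± 0.17 (adjusted p = 0.0135). The p53 response, which defects of ribosome assembly can trigger, was read from 14 genes. Of these, 11 were higher and 0 lower in model against normal livers (78.6% called, median 0.66), where 25.4% of all genes were higher. In TA against model livers 0 were higher and 1, Cdkn1a, lower (7.14%, median -0.31), where 11.1% of all genes were lower. In TA against normal livers 8 were higher and 0 lower (57.1%, median 0.71), where 10.7% of all genes were higher. Phlda3 was at 3.33 ± 0.30 in model against normal livers (adjusted p = 1.05e-05) and at 2.68 ± 0.30 in TA against normal livers (adjusted p = 0.000228). Rps27l did not pass the test in either of these 2 comparisons, with -0.47 ± 0.21 in model against normal livers and 0.32 ± 0.21 in TA against normal livers (log2, SE).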

How the data were processed

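Whole-liver RNA was sequenced in 9 libraries, 3 per group, from libraries made with an NEBNext Ultra kit per the labels' protocols. The authors deposited whole-number read counts and FPKM values per Ensembl gene, per the file headers. The submitters' processing notes name mm9; the aligner, counter and use of strand are not given in the sources used here, and positions printed are GRCm38 positions from GENCODE M21 and RefSeq, looked up by gene ID or symbol. The listed gene length (in bases, other columns) came with them, per the file headers. The authors' deposited comparison tables hold a mean signal of scaled counts per group, a fold (ratio) and p-values.

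From the counts, edgeR 4.0.16 was run in R 4.3.3 (filterByExpr with a minimum count of 10, TMM factors, quasi-likelihood test, group as the only term, all 9 libraries) on 13200 genes with Benjamini-Hochberg adjustment, and a gene is called at an adjusted p under 0.05. DESeq2 1.42.0 and limma-voom (limma 3.58.1) were alternatives. The procedure was tested on simulated model and normal libraries in which 200 genes were changed, as many raised as lowered. That simulation did not build in the differences in TMM factors between the groups, so it does not address the choice of scaling. A single emptied line of the table was left out. The members, gene lists and tests were chosen with earlier results of these data known. Named members are the 6 with the highest mean FPKM, those called, the 3 highest and 3 lowest changes per comparison, paralogs ending in l, and Rpl5, Rpl11, Rps6, Rps27a and Rplp0; Rpl35, Rpl30, Rps27 and the genes named for groups that do not overlap were added after their values were seen. In pathway lists, up to 3 genes with the smallest p and 1 in the other direction were eligible. Replicate numbers did not pair the libraries (0 of 9 same-numbered pairs correlated above 0.1). Library totals of 13710002 to 16475794 counts limit the precision of genes with few counts; sequencing reads are not independent molecules.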

Additional observations from a re-analysis of the deposited data

How the results depend on the processing

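Scaling had the largest effect. With library totals, 45 members were called in model against normal livers (59.2%, all higher, against 5 with TMM), where 61.4% of all genes were called. They were 6 in TA against model livers (7.89%, all lower, against 3), where 46.4% of all genes were called, and 1 in TA against normal livers (1.32%, against 0), where 14.6% were, and the medians became 0.51 for model against normal and -0.33 for TA against model. This setting shifts all genes, so many uncalled changes turned too, such as those of Rps27l in model against normal livers (0.213) and Rpl4 in TA against model livers (-0.179). Among named genes called under either scaling, it turned the model against normal log2 changes of Rpl11 (0.49), Rpl19 (0.67), Rpl22 (0.27), Rpl35a (0.0687), Rpl4 (0.234), Rplp0 (0.51), Rps15 (0.47) and Rps2 (0.012) and the TA against model change of Rpl35a (-0.0137). Upper-quartile factors gave 3, 1 and 1 calls for model against normal, TA against model and TA against normal, where 46.5%, 22.7% and 16.0% of all genes were called. DESeq2's Wald test gave 10, 11 and 1 in the same order (13.2%, 14.5% and 1.32% of the members), where it called 50.2%, 27.4% and 20.9% of all genes. Without a filter on low counts 3 members were called in model against normal livers. Limma-voom called 5 in TA against model livers (6.58%, where 24.6% of all genes were called), and a fit on the 6 libraries compared called 0 there. The replicate block gave 2, 1 and 0 calls in the same order, where 43.3%, 17.4% and 11.9% of all genes were called. Leaving out 1 library at a time gave 1 to 8 calls in model against normal livers, 0 to 7 in TA against model livers and 0 to 0 in TA against normal livers. The share of all genes called is not given here for the fits without a filter, on 6 libraries or without 1 library. The medians then ranged from -0.30 to -0.10, 0.19 to 0.41 and 0.03 to 0.21 in the same order. The calls in TA against model livers were 0 without TA replicate 2, TA replicate 3 or model replicate 3, and 7 without TA replicate 1. In model against normal livers there was 1 call without model replicate 3 and 8 without TA replicate 1. The share of counts without mitochondrial genes was 1.65% in TA, 1.98% in model and 1.40% in normal livers. Without the 100 most abundant other genes it was 2.78% in TA, 2.78% in model and 2.39% in normal livers. Leaving out 1 library, with all genes in the total, gave 1.44 to 1.495%, 1.63 to 1.93% and 1.24 to 1.37% in these groups. DESeq2 size factors and TMM factors computed without the members gave the same counts of calls as the main analysis. Genes under about 100 mean counts (4 members) have wide errors, and reads shared with other genes limit what single-gene levels show. The causes were not tested.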
